A study of Homo sapiens with 4 samples.

Results

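The aryl hydrocarbon receptor gene AHR, its partner gene ARNT, the repressor gene AHRR, the cytochrome P450 genes CYP1A1, CYP1A2 and CYP1B1 and the gene TIPARP were followed in CWR22Rv1 cells that carried an shRNA against Siah2. These 7 genes, chosen by name as the receptor, its partner and its classic targets, were read by 8 probes, and 13321 genes in all had a named probe. The members were proposed with earlier results of the same arrays in view, in which CYP1A2 stood among the genes with the largest differences between shSiah2 and pLKO.1 cells. Their differences are therefore given as a description with their error, and the calls counted among them are a description too, from which nothing was read.

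CWR22Rv1 is an established prostate cancer line from a xenograft that grew back in castrated mice. In one group the cells stably expressed an shRNA against the E3 ubiquitin ligase Siah2 (shSiah2, 2 arrays), and in the other they carried the control vector pLKO.1 (2 arrays). Cells of both groups had been infected with a vector, selected with puromycin, and grown in RPMI1640 with 10% serum and puromycin at 1 ug/ml, and no AHR ligand is named in the labels. The labels describe 1 Siah2 shRNA and do not say whether the replicates came from separate cultures, so the errors measure only the spread between these arrays, which may be technical.

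The aryl hydrocarbon receptor is a ligand-activated transcription factor that waits in the cytosol bound to HSP90 and p23. On binding a ligand, such as a dioxin, a polycyclic aromatic hydrocarbon or a tryptophan metabolite, it moves to the nucleus, pairs with ARNT and binds response elements with the core GCGTG. CYP1A1, CYP1A2 and CYP1B1 are its best known target genes, and AHRR and TIPARP are targets whose products restrain the receptor, AHRR by competing for ARNT and TIPARP by ADP-ribosylation. CYP1A2 is known mainly as a liver enzyme, whereas CYP1A1 and CYP1B1 are induced in many tissues.

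CYP1A2 and CYP1A1 were higher in shSiah2 cells, CYP1A2 by 2.69 ± 0.32 (SE) and CYP1A1 by 1.59 ± 0.27 (SE) on the log2 scale, 6.46-fold and 3.01-fold. AHR was higher by 1.69 ± 0.24 (SE) on its dim probe and by 0.34 ± 0.26 (SE) on its bright probe. TIPARP lay at 0.39, CYP1B1 at -0.39 and ARNT at -0.74, each on 1 probe, and AHRR was detected on a single array. All differences are shSiah2 minus pLKO.1 in background-corrected, quantile-normalized log2 intensity, called the normalized intensity here, and SE is the standard error from the fit across all tested probes.

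Between 19862 and 20632 of 47228 probes were detected per array (detection p under 0.05), the mean signal was 650 to 846, and precision is limited by the small number of arrays. The targeted gene SIAH2 had normalized intensities of 6.20 and 6.51 on the shSiah2 arrays and of 8.08 and 8.33 on the pLKO.1 arrays, a difference of -1.85 (SE 0.251, adjusted p = 0.00117 by limma). The 8 prostate luminal markers read here were detected on all 4 arrays, and 4 of them fell in shSiah2 cells, as described with the other marker lists. Testing took in the 20750 probes detected on 2 or more arrays. An adjusted p under 0.05 was reached by 1284 of them, or 6.19%, of which those higher in shSiah2 cells made up 2.47% of the tested probes and those lower 3.72%. The count was 520 in the fit that lacked pLKO.1 replicate 1 and 800 in the fit that lacked shSiah2 replicate 2. Of the 8 member probes, 7 were tested, and 3 of them passed, all higher: those of CYP1A2 and CYP1A1 and the dim probe of AHR. Both shSiah2 arrays lay above both pLKO.1 arrays for 5 of the 7 tested probes and below them for 2, where 26.2% of all tested probes lay above and 24.1% below. The members were chosen with this contrast known, so no support is read from these counts.

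**Figure D1:**
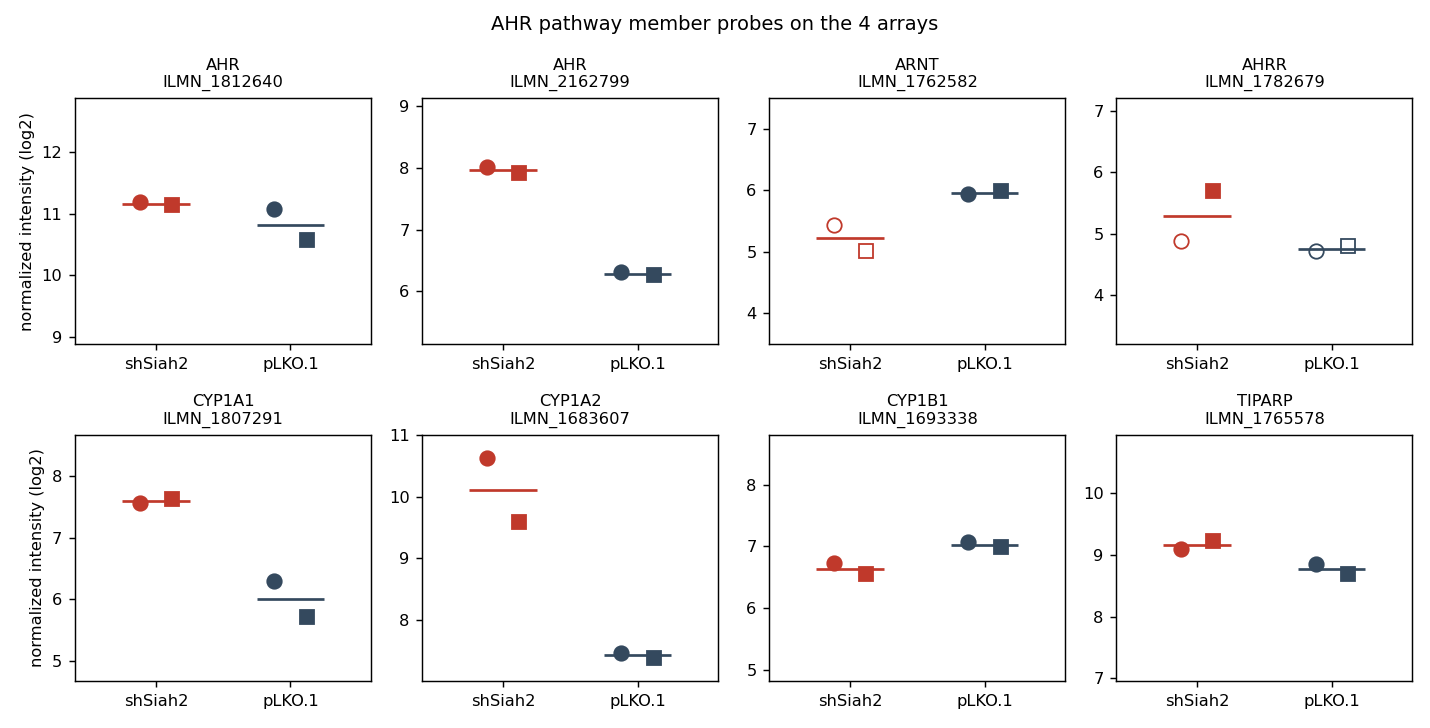
Normalized intensity (log2) of the 8 member probes on the shSiah2 and pLKO.1 arrays, 1 panel per probe, each spanning 4 log2 units; circles are replicate 1, squares replicate 2, lines group means, and open symbols arrays on which the probe was not detected. CYP1A2, CYP1A1 and the AHR probe ILMN_2162799 show the widest gaps between the groups, and the 2 shSiah2 arrays of CYP1A2 lie at 10.63 and 9.60.

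AHR, which encodes the receptor, was read by 2 probes, both annotated to transcript NM_001621. The bright probe, ILMN_1812640, had deposited signals of 2491 and 2014 on the shSiah2 arrays, against 2024 and 1992 on the pLKO.1 arrays. Its normalized intensity was 11.19 and 11.14 on the shSiah2 arrays and 11.07 and 10.57 on the pLKO.1 arrays. Both shSiah2 arrays were higher, but the difference of the means, 0.34, was smaller than the gap between the pLKO.1 arrays. The difference was 0.09 without pLKO.1 replicate 2 and 0.59 without pLKO.1 replicate 1.

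The dim AHR probe, ILMN_2162799, had deposited signals of 378 and 329 on the shSiah2 arrays, against 171 and 190 on the pLKO.1 arrays. The normalized intensity averaged 7.97 ± 0.0672 in shSiah2 cells and 6.28 ± 0.0321 in pLKO.1 cells (SD, n = 2 each), a 3.22-fold difference. Both shSiah2 arrays lay well above both pLKO.1 arrays, and the spread within each group was a small part of the gap. The pLKO.1 signals were low, with detection p of 0.0039 and 0.0026, and with no background correction the difference was 0.89. The probes of this gene therefore disagreed in size, 1.69 against 0.34, while sharing the direction. Which part of the transcript each probe reads was not analysed here.

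ARNT encodes the partner that AHR needs for DNA binding, and the same protein also pairs with the hypoxia factors. Its probe lay near the detection limit, with deposited signals of 153 and 137 on the shSiah2 arrays and 156 and 174 on the pLKO.1 arrays. The detection p-values were 0.0520 and 0.248 on the shSiah2 arrays, on neither of which it was detected, and 0.0156 and 0.0039 on the pLKO.1 arrays. The probe entered the fit through the pLKO.1 arrays alone. After normalization it had 5.44 and 5.01 in shSiah2 cells, against 5.93 and 5.99 in pLKO.1 cells. As a bound on this scale it was at least 1.41-fold lower in shSiah2 cells. This bound compares the pLKO.1 mean with a floor on each shSiah2 array, the lowest value of any detected probe. Where the probe was above that floor, its own value was used. Here and below, such a bound holds for the normalized intensity only and not for other ways of processing. It carries no error for the spread between arrays, so it is not a confidence limit. The difference of -0.74 was -0.25 without background correction, -0.43 with a background offset of 50 in place of 16 and -0.41 in the authors' value table.

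AHRR, the repressor that competes with AHR for ARNT, was at the detection limit. Its deposited signals were 129 and 161 on the shSiah2 arrays, against 108 and 117 on the pLKO.1 arrays. The detection p was 0.0286 on shSiah2 replicate 2 and between 0.373 and 0.692 on the other 3 arrays. The probe was detected on 1 of 4 arrays and was not tested, and no fold is given. TIPARP, also known as PARP7, was detected on all 4 arrays. Normalized intensities were 9.10 and 9.22 in shSiah2 cells, against 8.86 and 8.69 in pLKO.1 cells. The shSiah2 arrays were both higher, by 0.39 ± 0.24 (SE) on average, and the difference lay between 0.30 and 0.47 in the fits that each lacked 1 array.

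Among the target enzymes, CYP1A2, which oxidizes caffeine and aromatic amines, had the largest difference of the 7 tested member probes. Its deposited signals were 1755 and 781 on the shSiah2 arrays, against 252.5 and 303.4 on the pLKO.1 arrays. On the normalized scale it averaged 10.11 ± 0.731 in shSiah2 cells and 7.42 ± 0.0497 in pLKO.1 cells (SD, n = 2 each). Both shSiah2 arrays were far above the pLKO.1 arrays, but they differed from each other by more than any other pair of replicate arrays among the tested member probes. The difference was 3.21 without shSiah2 replicate 2 and 2.18 without shSiah2 replicate 1. By size it ranked 15th from the top of the 20750 tested probes.

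CYP1A1, the inducible enzyme that oxidizes polycyclic aromatic hydrocarbons, had deposited signals of 303 and 292 on the shSiah2 arrays, against 170 and 160 on the pLKO.1 arrays. Its normalized intensity was 7.60 ± 0.0499 in shSiah2 cells and 6.01 ± 0.409 in pLKO.1 cells (SD, n = 2 each). In this gene the pLKO.1 arrays were the ones that differed, at 6.30 and 5.72, while both shSiah2 arrays lay above them at 7.56 and 7.63. On the pLKO.1 arrays the probe lay near the detection limit, with detection p of 0.0039 and 0.0130. The lowest value of any detected probe on pLKO.1 replicate 2 was 5.42. Leaving out pLKO.1 replicate 1 gave a difference of 1.88, and leaving out pLKO.1 replicate 2 gave 1.30. It came to 0.75 with no background correction and to 1.04 in the authors' value table.

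CYP1B1, which hydroxylates estrogens and is often raised in tumours, did not share the direction of the CYP1A genes. Its deposited signals were 219 and 199 on the shSiah2 arrays, against 218 and 253 on the pLKO.1 arrays, and it was detected on all 4. Normalized, it had 6.73 and 6.55 in shSiah2 cells, against 7.08 and 6.98 in pLKO.1 cells. Both shSiah2 arrays were lower, with a difference of -0.39 ± 0.24 (SE) that was -0.19 without background correction and -0.26 in the authors' value table. A lower level in bulk RNA may stem from fewer cells with the transcript or from less RNA per cell, and these cannot be told apart.

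**Figure D2:**
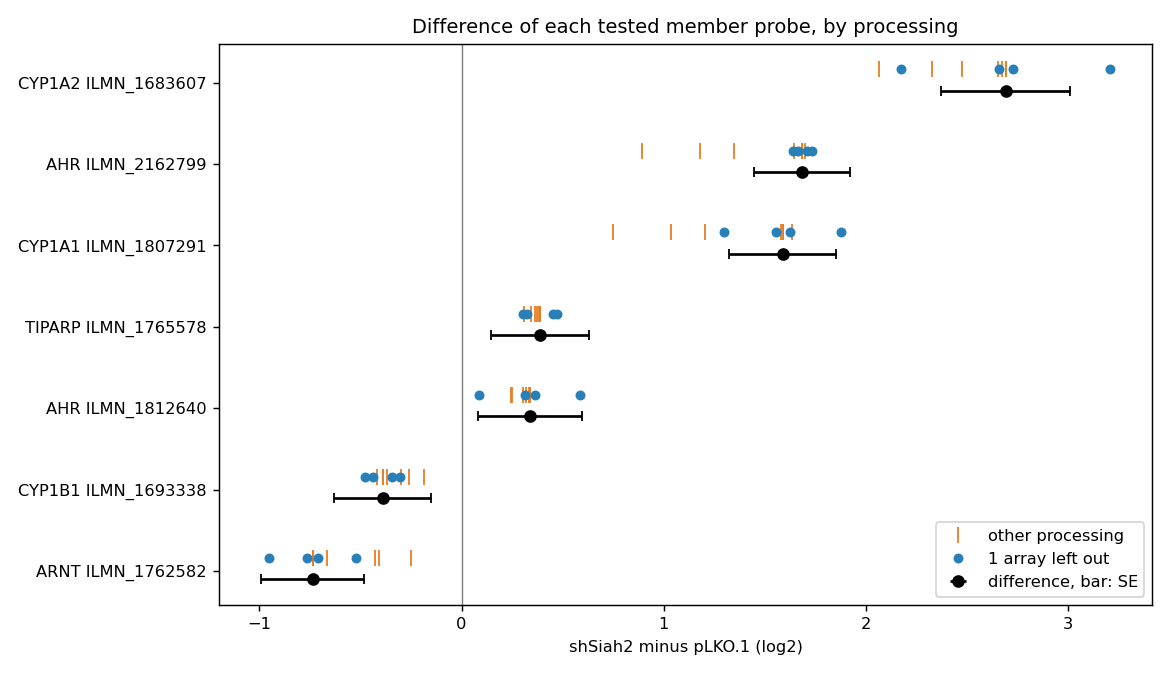
Difference between shSiah2 and pLKO.1 arrays (log2) for the 7 tested member probes; black points with bars give the difference and its SE, orange ticks other ways of processing, and blue dots fits without 1 array. The values of CYP1A2 stay between 2.07 and 3.21, and those of the bright AHR probe between 0.09 and 0.59.

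Profiles over the 4 arrays, each centred on its mean, gave another view of how the members moved together. The dim AHR probe and CYP1A1 were 0.41 log2 units apart (Euclidean distance), and CYP1B1 and ARNT were also 0.41 apart, whereas CYP1A1 and CYP1A2 were 1.40 apart. The bright AHR probe was closest to TIPARP, at 0.27, and 1.39 from the dim AHR probe. ARNT was detected on neither shSiah2 array, so its distances rest partly on values that were not above background. With 4 arrays in 2 groups, such distances follow the group difference and describe these arrays only.

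The genes whose profile was nearest to that of CYP1A2 among 11893 named genes were SLCO2A1, a prostaglandin transporter gene, at 0.50, the stress-induced transcription factor gene ATF3 at 0.69, the cytokine gene GDF15 at 0.76, RNU6ATAC, a small nuclear RNA gene of the minor spliceosome, at 0.76, and EBF1 at 0.79. SLCO2A1, like CYP1A2, was higher on shSiah2 replicate 1 than on replicate 2, at 8.19 and 7.48, against 5.22 and 5.62 in pLKO.1 cells. Nearest to CYP1A1 were the heme oxygenase gene HMOX1 at 0.13, the p53 target gene PHLDA3 at 0.16, the cadherin gene CDH12 at 0.19, the small nucleolar RNA gene SNORD74 at 0.21 and the reductase gene DHRS2 at 0.23. EBF1 and SNORD74 were detected on no pLKO.1 array, where they have only a bound. HMOX1 had 8.47 and 8.58 in shSiah2 cells, against 7.15 and 6.75 in pLKO.1 cells, so that it shared with CYP1A1 the lower value on pLKO.1 replicate 2. Over all 11893 named genes compared, the median distance was 2.80 from CYP1A2 and 1.68 from CYP1A1. The nearest genes lie below it by the way they were picked.

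**Figure D3:**
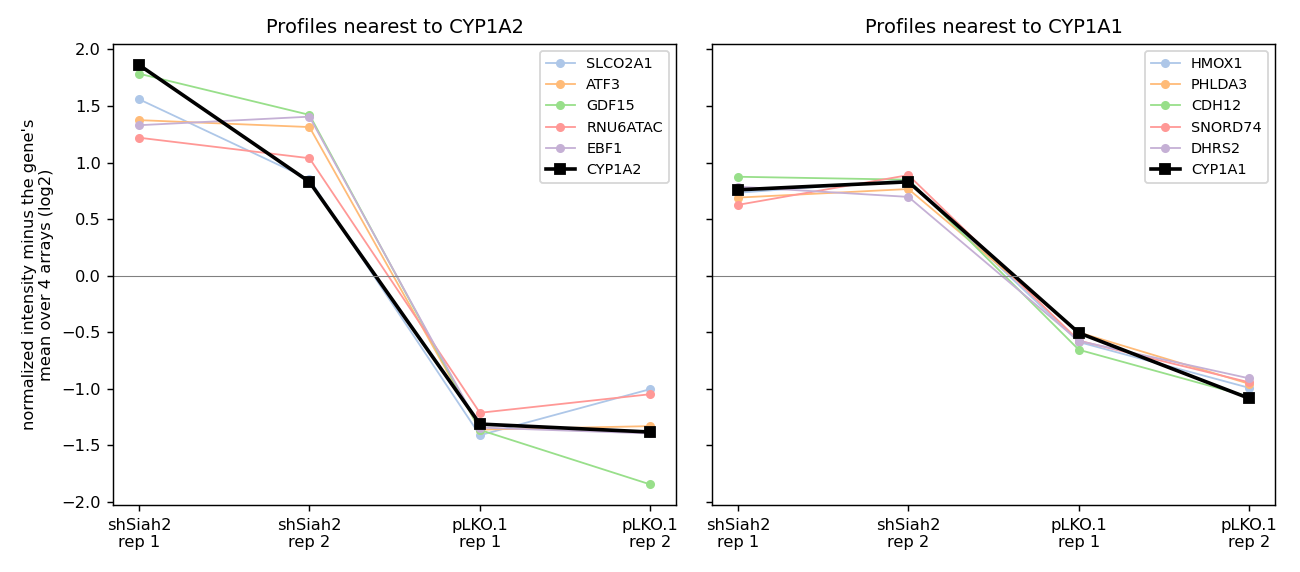
Normalized intensity minus the gene's mean over the 4 arrays (log2) for CYP1A2 (left) and CYP1A1 (right), in black, with the 5 genes of the smallest Euclidean distance to each. CYP1A2 and SLCO2A1 are both higher on shSiah2 replicate 1 than on replicate 2, and the CYP1A1 profile is 0.13 from that of HMOX1.

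The promoter windows of the members that carry the pathway are shown because CYP1A1 and CYP1A2 were higher together and AHR and TIPARP are the receptor and its feedback enzyme. Each window, from RefSeq, runs from 250 bases before to 50 bases after an annotated start. Capitals mark the receptor core GCGTG on either strand (CACGC when read on the other) and the TATA box TATAAA on the sense strand.
CYP1A1 (GRCh38.p14 chr15:74725479-74725778, - strand): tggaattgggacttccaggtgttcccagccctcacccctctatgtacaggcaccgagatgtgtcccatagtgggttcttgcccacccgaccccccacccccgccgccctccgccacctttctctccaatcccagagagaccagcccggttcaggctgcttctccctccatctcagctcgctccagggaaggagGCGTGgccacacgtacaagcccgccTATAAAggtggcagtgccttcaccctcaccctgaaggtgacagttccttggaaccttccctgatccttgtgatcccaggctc
CYP1A2 (GRCh38.p14 chr15:74748595-74748894, + strand): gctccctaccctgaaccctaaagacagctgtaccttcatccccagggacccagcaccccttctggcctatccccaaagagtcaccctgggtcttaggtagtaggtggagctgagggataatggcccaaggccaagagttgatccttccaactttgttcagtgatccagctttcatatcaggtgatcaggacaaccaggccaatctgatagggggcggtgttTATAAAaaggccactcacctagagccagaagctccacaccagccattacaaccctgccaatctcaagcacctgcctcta
TIPARP (GRCh38.p14 chr3:156674340-156674639, + strand): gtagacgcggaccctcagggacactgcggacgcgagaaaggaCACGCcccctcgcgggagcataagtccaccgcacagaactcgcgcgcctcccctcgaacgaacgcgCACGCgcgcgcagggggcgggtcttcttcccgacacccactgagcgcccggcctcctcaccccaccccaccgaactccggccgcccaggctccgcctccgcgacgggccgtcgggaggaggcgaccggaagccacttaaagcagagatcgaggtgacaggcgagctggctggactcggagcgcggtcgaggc
AHR (GRCh38.p14 chr7:17298402-17298701, + strand): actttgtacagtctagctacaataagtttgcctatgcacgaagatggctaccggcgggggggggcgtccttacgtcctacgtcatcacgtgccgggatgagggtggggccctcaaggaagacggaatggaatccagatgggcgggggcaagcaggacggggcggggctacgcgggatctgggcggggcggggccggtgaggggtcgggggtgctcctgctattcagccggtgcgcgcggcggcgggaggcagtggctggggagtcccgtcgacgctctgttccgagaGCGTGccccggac

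The CYP1A1 window holds GCGTG with its first base at position -57 from the start and TATAAA at -32. The CYP1A2 window holds TATAAA at -29 and no GCGTG, and no match says only that these letters are absent from this window. TIPARP, which has 3 annotated windows, holds the core at -208 and -142 in the one shown, both on the antisense strand, and not in the others. AHR holds it at position 38. Of the 9 windows found for 6 members, 5 held GCGTG and 4 did not, and CYP1B1 had no entry. The core occurred in 36.5% of 35116 windows of this length, so its presence is common, and TATAAA in 7.33%. The longer form TNGCGTG, which contains the core, occurred in 5.51% of windows and, among the members, in 1 AHRR window.

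CYP1A1 and CYP1A2 lie next to each other on chromosome 15 with 0 protein-coding genes between them in the RefSeq table. Of the 5 nearest genes on each side that the RefSeq table lists as protein-coding, 7 were tested and 0 passed the threshold by limma. An unadjusted p under 0.05 was reached by 0 of them, beside 2721 of all 11894 named genes tested. On the CYP1A1 side EDC3, an mRNA decapping factor gene, lay at -0.08 (SE 0.244), CLK3 at -0.31, ARID3B at -0.25 and UBL7 at -0.38. On the CYP1A2 side the kinase gene CSK lay at -0.23 (SE 0.267), ULK3 at 0.35 and SCAMP2 at 0.33. The CYP1A genes were thus 1.59 and 2.69 higher beside neighbours that lay between -0.38 and 0.35, each read on its brightest tested probe. CLK3 and UBL7 had 2 tested probes each, and their dimmer probes are not given here.

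**Figure D4:**
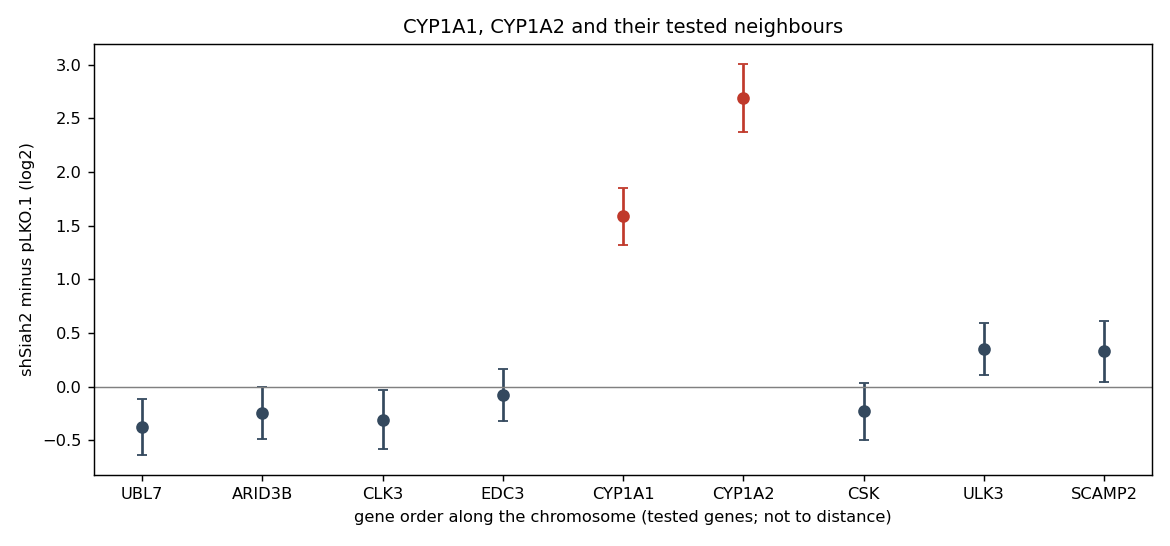
Difference between shSiah2 and pLKO.1 arrays (log2, bars are the SE) for CYP1A1 and CYP1A2 (red) and their tested protein-coding neighbours (grey), in their order along the chromosome and not to distance. CYP1A1 and CYP1A2 stand at 1.59 and 2.69, and the neighbours, each on its brightest tested probe, between -0.38 and 0.35.

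The rest of the receptor pathway was read through 9 lists of 158 genes, of which 71 were tested on the brightest probe of each gene. Of these, 2 rose and 4 fell, 8.45% of the tested pathway genes, beside 7.24% of all 11894 named genes tested, and the pathway median was 0.06 beside 0.01 for all named genes. Among the genes that fell, the P450 gene CYP2C8 entered the fit through the pLKO.1 arrays alone. Over all named genes 2.72% rose and 4.51% fell, and 2721 of the 11894 had an unadjusted p under 0.05 by limma. The number that rose was 0 in the fits that lacked pLKO.1 replicate 1 or shSiah2 replicate 1, and 1 in the fit that lacked pLKO.1 replicate 2.

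Among 13 tested genes that AHR is known to induce besides the members, 1 rose and 1 fell, and 6 had an unadjusted p under 0.05 by limma. The median was -0.04 (-0.13 to 0.06 with 1 array left out). PTGS2, the inducible cyclooxygenase gene, rose by 1.07 (SE 0.239, adjusted p = 0.0228 by limma), with 7.61 and 7.47 in shSiah2 cells and 6.47 and 6.47 in pLKO.1 cells, and its second tested probe lay at 0.66 (adjusted p = 0.132 by limma). VAV3, a guanine nucleotide exchange factor gene, fell by 1.09 (SE 0.251, adjusted p = 0.0257 by limma), with 6.34 and 6.19 in shSiah2 cells and 7.17 and 7.55 in pLKO.1 cells. PTGS2 missed the threshold when either pLKO.1 array (1.07 in both fits) or shSiah2 replicate 1 (1.00) was left out. VAV3 missed it when pLKO.1 replicate 2 (-0.91) or shSiah2 replicate 2 (-1.02) was left out, with no background correction (-0.53) and with no filter on dim probes. The classic phase II genes did not pass: NQO1, a quinone reductase, lay at -0.39 (adjusted p = 0.407), the glutathione transferase gene GSTA2 at -0.92 (adjusted p = 0.0562) and the glucuronosyltransferase gene UGT1A6, detected on 1 shSiah2 array, at -0.38. UGT1A1 did not pass either (adjusted p = 0.0888 by limma) and entered the fit through the shSiah2 arrays alone. It was not above background on either pLKO.1 array and has only a bound on the normalized scale, at least 1.24-fold higher in shSiah2 cells. Whether these probes separate the UGT1A transcripts or the near-identical GSTA genes was not analysed here, so these are uncertain as single genes.

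Among 10 tested P450 genes outside the CYP1 family, 1 rose and 1 fell, and 6 had an unadjusted p under 0.05 by limma. The median was -0.01 (-0.11 to -0.02 with 1 array left out, and 0.25 with the stricter detection filter). CYP2J2, an epoxygenase of arachidonic acid, rose by 1.18 (SE 0.254, adjusted p = 0.0187 by limma), with 6.94 and 6.51 in shSiah2 cells and 5.48 and 5.61 in pLKO.1 cells, where it was detected on 1 array. CYP2C8, a liver drug-metabolizing enzyme, fell by 1.42 (SE 0.245, adjusted p = 0.00554 by limma). It entered the fit through the pLKO.1 arrays alone and was detected on neither shSiah2 array. As a bound on the normalized scale it was at least 2.41-fold lower in shSiah2 cells. CYP2J2 missed the threshold when pLKO.1 replicate 1 (1.12) or shSiah2 replicate 1 (0.97) was left out, with no background correction (0.45) and with no filter on dim probes. CYP2C8 missed it with no background correction (-0.52), and its difference was -0.79 in the authors' value table and -0.93 with an offset of 50. Of the 7 tested genes for the electron donors of P450 enzymes, 0 passed by limma and 1 had an unadjusted p under 0.05, and POR, the reductase of the microsomal enzymes, lay at 0.20 (adjusted p = 0.728), while CYB5R1 at -0.59 and CYB5A at -0.31 had the largest differences.

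The receptor's chaperones and turnover factors held 0 calls of 6 on their brightest probes, and 0 had an unadjusted p under 0.05. Their median was 0.44, and 5 of the 6 lay between 0.21 and 0.51, with the p23 gene PTGES3 at 0.51 and DDB1 at 0.47. The other DDB1 probes disagreed with each other, since one rose by 0.96 (adjusted p = 0.0445 by limma) and one lay at 0.02 (adjusted p = 0.974 by limma). The HSP90AA1 probes disagreed in sign, at 0.42, 0.16 and -0.41. Of 8 coregulators 0 passed and 3 had an unadjusted p under 0.05, with a median of 0.41, 0.22 without background correction and 0.21 without shSiah2 replicate 2. The coactivator gene NCOA1 lay at 0.99 (adjusted p = 0.0568) and passed in 8 of the 13 alternatives, its second probe lay at 0.72 (adjusted p = 0.147), and the retinoblastoma gene RB1 lay at 0.60. Of 7 other bHLH-PAS genes, the protein family of AHR and ARNT, 0 passed and 1 had an unadjusted p under 0.05, with a median of -0.02 (-0.09 to 0.25 with 1 array left out). NPAS3 lay at 0.65 and SIM2 at 0.32, and among other ARNT partners HIF1A lay at -0.11 and EPAS1 at 0.22.

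Among the other PARP family genes, to which TIPARP belongs, 2 of 10 fell and 0 rose, and 4 had an unadjusted p under 0.05 by limma. The median was 0.02 (-0.11 to 0.07 with 1 array left out). PARP14, a mono-ADP-ribosyltransferase, fell by 1.44 (SE 0.266, adjusted p = 0.00836 by limma), but missed the threshold, at -1.35, when pLKO.1 replicate 1 was left out. PARP9 fell by 1.33 (SE 0.244, adjusted p = 0.00834 by limma), and its second tested probe fell by 1.42. PARP3 at -1.03 and PARP12 at -0.91 did not pass, with adjusted p of 0.0620 and 0.0633, and passed in 8 and 6 of the 13 alternatives. The second PARP3 probe lay at -0.67 (adjusted p = 0.125). Of the other 6 genes, PARP16 lay at -0.01 and PARP1, PARP2, PARP4, PARP8 and ZC3HAV1 between 0.06 and 0.31, beside 0.39 for TIPARP.

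The 6 tested genes of the kynurenine pathway, which makes AHR ligands from tryptophan, held 0 calls and 0 with an unadjusted p under 0.05, with AFMID at -0.41, HAAO at -0.34 and a median of -0.18 (-0.38 to -0.03 with 1 array left out). The second AFMID probe lay at 0.10, on the other side of 0, and HAAO was detected on 1 shSiah2 array. Of 4 tested transcription factor genes of xenobiotic or hepatocyte programmes, 0 passed and 1 had an unadjusted p under 0.05. CEBPB lay at 0.75 (adjusted p = 0.0989) and passed in 5 of the 13 alternatives, with adjusted p of 0.0187 to 0.284 over all of them. CEBPA lay at 0.29, and the median was 0.19 (0.13 to 0.28 with 1 array left out).

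**Figure D5:**
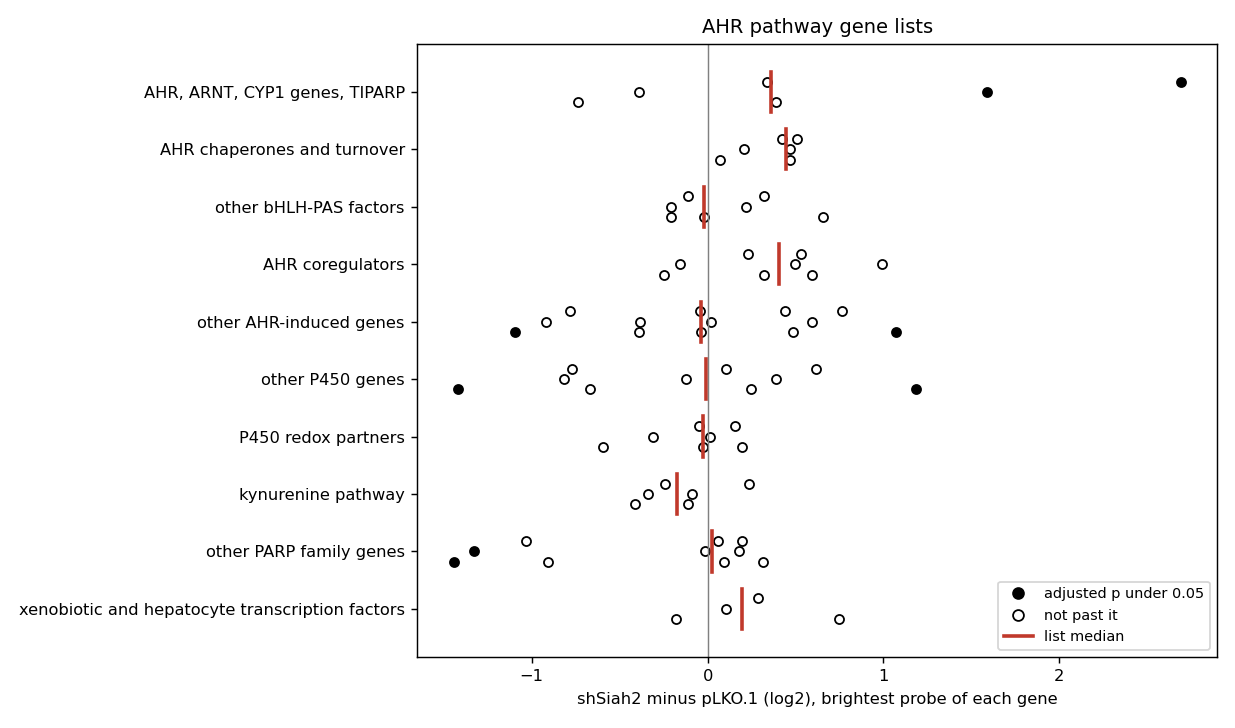
Difference between shSiah2 and pLKO.1 arrays (log2) of every tested gene of the member set and of the 9 pathway lists, on the brightest probe of each gene; filled points passed an adjusted p of 0.05 and red bars are list medians. CYP1A2 and CYP1A1 lie at 2.69 and 1.59, beyond PTGS2 at 1.07 and CYP2J2 at 1.18, and the genes that fell lie between -1.09 and -1.44, among them CYP2C8, which was detected on no shSiah2 array.

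Hepatocyte markers were read because CYP1A2 is known as a liver gene. Of 14 markers, 7 had a named probe, of which 6 and 4 were detected on the shSiah2 arrays and 4 and 5 on the pLKO.1 arrays. Their summed normalized intensity, on the linear scale, was 34346 to 39092 in shSiah2 cells and 16378 to 18081 in pLKO.1 cells. The albumin gene ALB rose by 1.13 (adjusted p = 0.0187 by limma), with 15.05 and 15.24 in shSiah2 cells and 14.10 and 13.94 in pLKO.1 cells, and its second probe rose by 1.24. ALB made up nearly all of the sum: without it the other 6 markers summed to 352 to 387 in shSiah2 cells and 559 to 615 in pLKO.1 cells. The transthyretin gene TTR fell by 2.68 (adjusted p = 0.000124 by limma) and was detected on 1 shSiah2 array. CPS1 also fell (adjusted p = 0.00658 by limma), but it entered the fit through the pLKO.1 arrays alone and was not above background on either shSiah2 array. As a bound on the normalized scale it was at least 2.11-fold lower in shSiah2 cells. AMBP at 0.77, FGB at 0.66 and APOH at 0.02 did not pass, and FGB was detected on neither pLKO.1 array. The list thus held 1 gene that rose and 2 that fell of 6 tested, with a median of 0.34. Over all named genes tested, 2.72% rose and 4.51% fell. An unadjusted p under 0.05 by limma was reached by 5 of the 6, beside 2721 of all 11894 named genes tested. CPS1 and FGB, counted among the 5, each entered the fit through 1 group alone, so no support is read from these counts. The part of the hepatocyte markers in the CYP1A2 result was not tested.

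Of the 8 luminal markers, 0 rose and 4 fell, with a median of -0.59, beside 2.72% that rose and 4.51% that fell of all named genes. SLC45A3 fell by 3.31 (adjusted p = 1.69e-05 by limma), HOXB13 by 1.58 (adjusted p = 0.00289), TMPRSS2 by 1.14 (adjusted p = 0.0187) and FOLH1 by 1.08 (adjusted p = 0.0336), and the second FOLH1 probe lay at -0.60 (adjusted p = 0.196). KRT8, KRT18, EPCAM and CDH1 did not pass and lay between -0.09 and 0.34 on their brightest probes, and the second KRT18 probe lay at -0.70 (adjusted p = 0.153). The summed level of the luminal markers was 16507 to 17125 in shSiah2 cells and 20644 to 20907 in pLKO.1 cells. For 4 fibroblast markers the sum was 2666 to 3265 in shSiah2 cells and 1405 to 1581 in pLKO.1 cells, but these markers did not move together. LUM rose by 1.32 (adjusted p = 0.00914 by limma), and without it the sum was 165 to 180 in shSiah2 cells and 344 to 413 in pLKO.1 cells. DCN fell by 1.98 (adjusted p = 0.000501 by limma) on its brighter probe and lay at 0.67 (adjusted p = 0.155) on its other probe. For 3 leukocyte and endothelial markers the sum was 643 to 1154 in shSiah2 cells and 693 to 811 in pLKO.1 cells, and 0 of the 2 tested passed by limma, 1 with an unadjusted p under 0.05. The part of these markers in the results was not tested.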

How the data were processed

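RNA from 4 samples of CWR22Rv1 cells was measured on Illumina bead arrays, 2 shSiah2 and 2 pLKO.1, grouped by their titles. The authors deposited, per the file headers, a linear intensity and a detection p-value for each probe and array, and name no normalization there. They also deposited a value table of 24733 probes, on comparison those detected on at least 1 array, on a log2 scale (slope 1.01 to 1.02 against log2 intensity, column medians 7.59 to 7.62), with a scaling between arrays that stays unknown.

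Background correction and normalization used neqc of limma 3.58.1 in R 4.3.3 (normexp from detection p-values, offset 16, quantile normalization, log2). Groups were compared with lmFit and eBayes, tested on simulated data, two-sided, without covariates, with Benjamini-Hochberg adjustment over 20750 probes detected on at least 2 arrays, at 0.05. The brightest tested probe stood for each listed gene. Symbols came from the platform annotation, updated through Entrez IDs to RefSeq (GRCh38.p14): 18007 probes had 1 symbol, 4 had several and 29217 had none.

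The members and lists were chosen with earlier results of these data known. The text names every member probe, in each list the genes past the threshold or, where none passed, the 2 with the largest difference, 5 genes on each side of the CYP1A pair, the 5 profiles nearest to CYP1A2 and to CYP1A1, and SIAH2. Other genes named in lists were chosen after their values were seen. Alternatives were no background correction, offset 50, cyclic loess, 75th percentile scaling, the authors' table, 2 other detection filters, an intensity trend, the replicate number as a block, leaving out each array, and, for list medians, the mean of a gene's probes.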

Additional observations from a re-analysis of the deposited data

How the results depend on the processing

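The directions of the 7 tested member probes were kept in every alternative that contained them. The stricter detection filter (detection p under 0.01 on all 4 arrays) left out CYP1A1 and ARNT. Over all tested probes, 640 passed with no filter on dim probes (216 higher and 424 lower), and 520 to 1329 in the fits that each lacked 1 array (177 to 520 higher and 343 to 809 lower), the lowest without pLKO.1 replicate 1. Without shSiah2 replicate 2 there were 800 (300 higher and 500 lower), and without pLKO.1 replicate 2 there were 500 lower. The pathway genes that rose numbered 4 with an offset of 50, with the authors' value table and with an intensity trend, 1 with no filter on dim probes, and 0 to 3 without 1 array. Those that fell numbered 3 to 6 without 1 array. The causes of these shifts were not tested. Whether the replicate numbers pair the samples is not known, and with 2 arrays per group the correlation of same-numbered deviations (0.09) cannot decide it. With the number as a replicate block 1815 probes passed, among them 7 pathway genes that fell. A fit without 1 array assumes that the lone array varies like the other group.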
